A study of Mus musculus with 24 samples.

Results

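Mammary tumours with much RNA of fat cells were compared with mammary tumours that had little. The fat-rich and fat-poor tumours were chosen by their level of Adipoq, the gene of the fat cell hormone adiponectin, in CPM, the gene's share of the counted reads of its library on a scale of 1000000. Within each genotype label the 4 tumours with the highest Adipoq were taken as rich and the 4 with the lowest as poor, which gave 8 rich and 8 poor tumours, 16 of the 24 in the series. The 8 tumours in between entered no class and served as a separate check.

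All tumours came from MMTV-PyMT mice, in which the mouse mammary tumour virus promoter drives the polyoma middle T oncogene in the mammary epithelium, and were collected at a volume of 2000 mm3. Bulk RNA sequencing was made from frozen, homogenised tumour with a stranded mRNA kit, so each library mixes tumour cells with the fat pad, vessels and other tissue collected with them. By label, 12 tumours are SHP KO and 12 SHP WT, SHP being the nuclear receptor encoded by Nr0b2, from Nr0b2-/- and Nr0b2+/+ colonies that all carry the PyMT transgene. No other treatment, age or batch is labelled. The rich class held libraries KO 2, KO 8, KO 10, KO 11, WT 13, WT 14, WT 16 and WT 20. The poor class held KO 5, KO 6, KO 9, KO 12, WT 17, WT 18, WT 21 and WT 23.

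Library totals ran from 18789250 to 38022182 counted reads. Nr0b2 went against the labels: the 12 libraries labelled KO held 3 to 71 reads each, and 11 of the 12 labelled WT held 0, so KO and WT here name the label and not a measured loss. In the KO classes the rich libraries held 4 to 8 Nr0b2 reads and the poor 6 to 71, while all 8 WT class libraries held 0. The tissue label was checked with 12 markers of luminal epithelium, which summed to 4795 to 7307 CPM in rich and 5493 to 9672 CPM in poor libraries. Whether each tumour came from its own animal is not stated, and p-values cover only how these tumours varied among themselves. Rich and poor libraries had similar totals (means of 25608900 and 25513100 reads, exact permutation test within genotype label, two-sided, adjusted p = 0.962 over 4 measures), and genes with a read numbered 23919 against 23118 (exact permutation, adjusted p = 0.276).

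White fat cells hold triglyceride in a single large droplet coated by perilipins, take up fatty acids through lipoprotein lipase and its partners, release them by lipolysis, and secrete hormones such as adiponectin, leptin and resistin. The mammary gland grows inside a fat pad, and a tumour lies against fat cells, their progenitors, fibroblasts, vessels and resident macrophages and mast cells. Tumour regions far from vessels are known to run short of oxygen, and the factor HIF then switches on genes of glycolysis, glucose import and vessel growth.

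Adipoq (chromosome 16, 22965286 to 22976718, plus strand, GRCm39), which set the classes, ran from 42.1 to 275 CPM in the rich libraries with a median of 59.2, and from 0.656 to 12.7 CPM in the poor libraries with a median of 5.02. These values were used for the choice and are a description. Around the upper border, KO 10 at 57.5 CPM was rich and KO 4 at 32.7 was not, and WT 13 at 42.1 was rich and WT 15 at 20.6 was not. Around the lower border, KO 6 at 12.7 CPM was poor and KO 7 at 20.2 was not, and WT 17 at 5.20 was poor and WT 22 at 8.85 was not. Because the choice was made within each label, the highest poor library, KO 6, stood above WT 22 and above WT 24 at 9.56, which lay in between. KO 11 stood far above all others.

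Plin1 (chromosome 7, 79370912 to 79382652, minus strand, GRCm39), the perilipin that coats the fat cell droplet, was not used for the choice. It ran from 10.7 to 99.1 CPM in rich and from 0.292 to 2.94 CPM in poor libraries, with medians of 19 and 1.83. Chosen by Plin1 instead, 8 of the 8 rich and 7 of the 8 poor libraries would have stayed. Reads of Adipoq and Plin1 were thus present in all 16 libraries, at far lower levels in the poor ones. The fewest were 18 reads of Adipoq in WT 23 and 7 of Plin1 in KO 12. In bulk tissue, fewer cells of a type and less RNA per cell cannot be told apart.

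**Figure D1:**
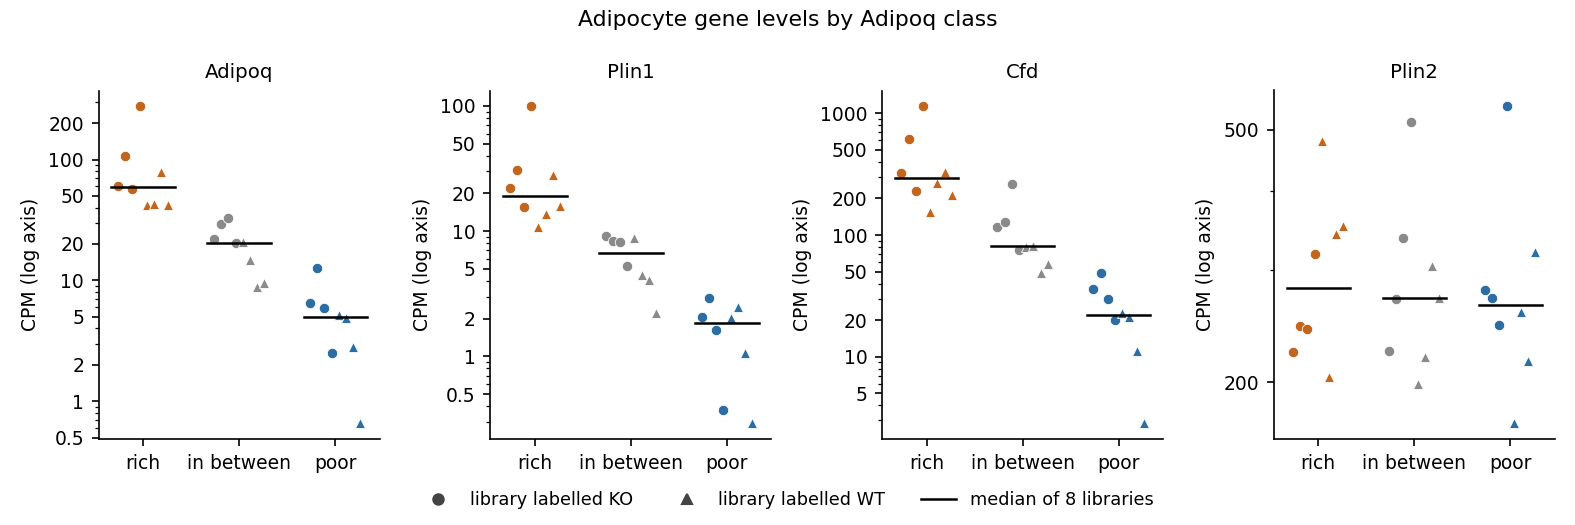
CPM (log axis) of Adipoq, Plin1, Cfd and Plin2 in each of the 24 libraries by class, 8 rich, 8 in between and 8 poor, with each point a library, the symbol its genotype label and the line the median of 8 libraries. Adipoq, Plin1 and Cfd do not overlap between rich and poor, with rich minima of 42.1, 10.7 and 153 CPM, while Plin2 spans 204 to 480 CPM in rich and 172 to 544 CPM in poor libraries.

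Across the fat cell gene lists, 26 of 83 tested genes were higher in rich libraries and 2 lower at an adjusted p under 0.05 in edgeR (quasi-likelihood test, Benjamini-Hochberg), beside 4.14% of all 16818 genes tested. Because Adipoq chose the classes, nothing is read from these counts, and the genes of fat cells are given as levels. Of the secreted proteins, Cfd, which encodes adipsin, ran from 153 to 1140 CPM in rich and from 2.84 to 49.1 CPM in poor libraries, with medians of 296 and 22.2. Retn, the gene of resistin, ran from 14.1 to 105 CPM against 0.146 to 4.61. Lep, the gene of leptin, ran from 4.78 to 35.4 CPM against 0.109 to 3.45. None of these ranges overlapped, nor did those of the retinol carrier gene Rbp4, at 2.35 to 28.1 CPM against 0.266 to 1.45, or of Lpl, the lipoprotein lipase gene, at 105 to 743 CPM against 27.4 to 88.

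Droplet and uptake genes differed in how far the classes overlapped. Cidec, whose protein fuses droplets, ran from 14.6 to 198 CPM in rich and from 0.365 to 6.36 CPM in poor libraries. The droplet coat gene Plin4 ran from 19.2 to 108 CPM against 1.13 to 13.5. Plin2, a coat protein gene that many cell types express, had medians of 281 and 264 CPM with overlapping ranges, and its log2 change of -0.02 ± 0.25 (SE) took either sign between settings. Of the genes for fatty acid handling, Fabp4, an intracellular carrier, ran from 105 to 1190 CPM against 7 to 32.9, and the uptake receptor Cd36 from 40.9 to 297 CPM against 5.21 to 29. The related carrier Fabp5 lay the other way, with medians of 84 CPM in rich and 168 CPM in poor libraries and ranges of 30.3 to 134 and 111 to 303. Acsl1, a fatty acid activating enzyme, had medians of 148 and 80.5 CPM, and 7 of 8 rich libraries lay above the poor maximum of 104.

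Of 10 tested lipolysis genes, the ranges of 3 did not overlap between the classes. Among all genes tested, 1.06% had every rich library above every poor library. Adrb3, the fat cell adrenergic receptor, ran from 2.93 to 21.3 CPM in rich and from 0 to 1.89 CPM in poor libraries, and Lipe, the hormone-sensitive lipase, from 26.6 to 113 CPM against 7.99 to 24.2. Aqp7, the glycerol channel, ran from 0.741 to 6.75 CPM against 0 to 0.307, and passed the expression filter only through the rich libraries. Pnpla2, the first lipase of triglyceride breakdown, had medians of 154 and 112 CPM and Pde3b, which ends the adrenergic signal, 21.8 and 8.3 CPM, both with some overlap. Of the triglyceride enzymes, Pck1, which supplies glycerol phosphate, ran from 8.83 to 147 CPM in rich and from 0.146 to 5.26 CPM in poor libraries, whereas Gpam, the first acyltransferase, had medians of 72.8 and 54.7 CPM with overlap.

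De novo fat synthesis is active in tumour cells as well as in fat cells, and 0 of its 11 genes passed, with a median log2 change of 0.51. The fatty acid synthase gene Fasn had medians of 471 and 351 CPM, and KO 11 alone held 2862 CPM. The desaturase gene Scd1 had medians of 2829 and 1432 CPM, with wide overlap. Among the regulators, Ebf1 ran from 3.76 to 21 CPM in rich and from 1.49 to 3.5 CPM in poor libraries without overlap, Ebf2 had medians of 1.85 and 0.665 CPM, and Pparg, the master factor of fat cells that other cells also express, had medians of 7.7 and 3.42 CPM with overlap. Trarg1, a partner of glucose transporter traffic, ran from 3.15 to 32.6 CPM against 0.474 to 1.36, while the transporter gene Slc2a4, which muscle shares, ran from 6.82 to 97.7 CPM against 1.57 to 27.5.

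The highest values of these brown fat genes came from KO 11. Ucp1, the uncoupling protein, was at 265 CPM in KO 11, and the rich median was 1.39 CPM with a lowest value of 0, against a poor range of 0 to 2.94. Cidea, a droplet protein typical of brown fat, reached 101 CPM in KO 11 with a rich median of 3.47, and the cytochrome oxidase subunit gene Cox8b 65.4 CPM with a rich median of 6.76. Without KO 10 and KO 11 the log2 change of Ucp1 was 3.83 in place of 6.17, that of Cidea 0.52 in place of 1.97 and that of Cox8b 2.05 in place of 2.75. Of 9 tested receptors for fat cell hormones 0 passed in edgeR, with 6 at an unadjusted p under 0.05 and a median log2 change of 0.36, and in DESeq2 1 was called higher and 1 lower. Adipor2, an adiponectin receptor, had medians of 197 and 145 CPM (log2 change 0.31 ± 0.10, edgeR adjusted p = 0.0758, and 0.0224 in DESeq2), and Lepr, the leptin receptor, 20.4 and 16.4 CPM (0.36 ± 0.28, adjusted p = 0.48).

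Beyond the fat cell lists, the comparison asked which other genes moved with the Adipoq class. Of 16818 genes tested in edgeR with the genotype label as a block, 697 passed (4.14%), 519 higher (3.09%) and 178 lower (1.06%) in rich tumours, and 669 of the calls were on no fat cell list. The lists do not name every gene of fat cells, so some of the 669 can follow from the choice. The median log2 change of all genes was -0.01. Of the calls 74.5% were higher, which became 84.7% with upper-quartile scaling and 58.5% in DESeq2, where 1796 genes passed. As a slope on Adipoq over all 24 libraries, 3652 of 15820 genes passed. Of these, 1624 rose with Adipoq and 2028 fell, so that 44.5% were higher. Every rich library lay above every poor library for 179 genes (1.06%) and below for 14 (0.0832%).

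The count changed with the libraries and covariates of the fit. The 11 B cell markers, of which 6 passed the expression filter, summed to 297 CPM in KO 11 and 139 in KO 10 and to between 2.04 and 7.97 CPM in the other 14 libraries of both classes. The 12 T cell markers summed to 206 and 123 CPM there and to between 10.6 and 30.8 CPM elsewhere. The 16 skeletal muscle markers ran from 28.3 to 8117 CPM in rich libraries, highest in KO 11, and from 29.3 to 369 CPM in poor libraries. Without KO 10 and KO 11, a setting chosen after seeing the data, 220 genes passed, 198 of them higher, and 214 of the 220 were among the 697. With the muscle score as a covariate 229 passed, and with the B cell score 48. Why these fits called fewer genes was not tested. Among fits that left out a library, the count was 291 when KO 11 was omitted, 422 when KO 6 was, and 341, 369, 372 and 453 when the omitted library was WT 16, WT 23, WT 20 or WT 13. It rose to 990 when KO 2 was omitted and to 799 when WT 18 was. It was highest when KO 9 was omitted, at 1027, of which 501 were lower. Within the 8 libraries labelled KO alone 0 genes passed, with 1523 at an unadjusted p under 0.05, and within those labelled WT 2 passed, with 2931.

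**Figure D2:**
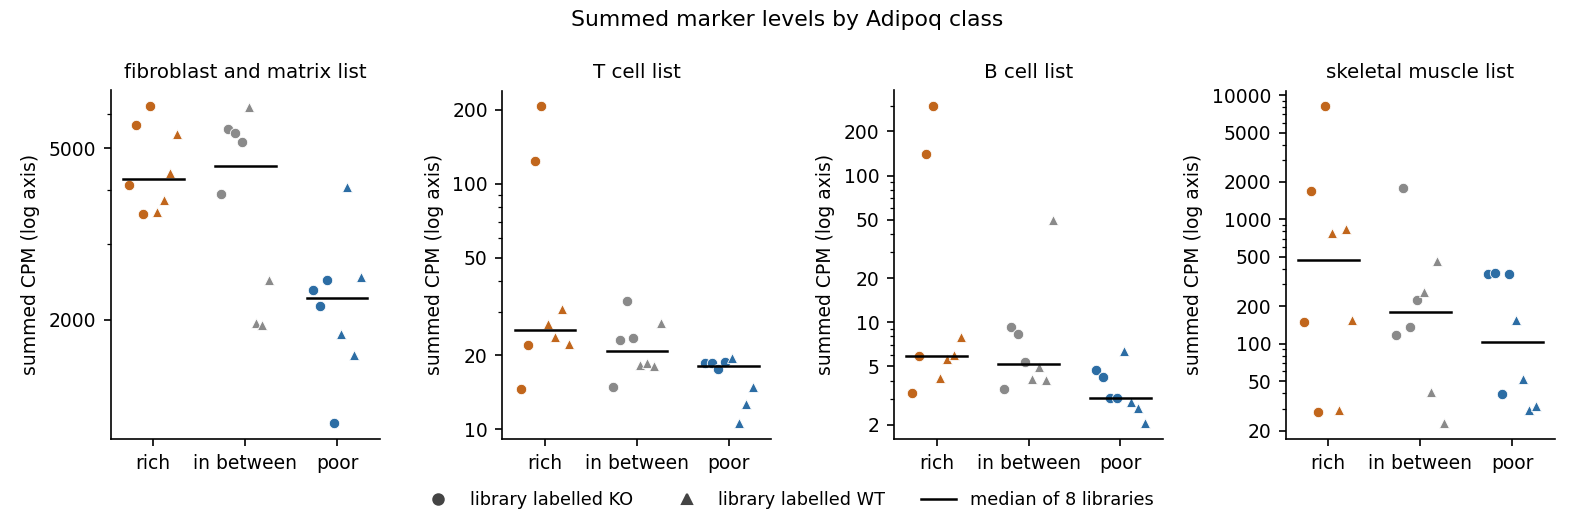
Summed CPM (log axis) of the fibroblast and matrix, T cell, B cell and skeletal muscle markers by class, each point being a library, the symbol its genotype label and the line the median of 8 libraries. The B cell and T cell sums of KO 10 and KO 11 stand apart at 139 and 297 CPM and at 123 and 206 CPM, and the fibroblast sums run from 3515 to 6258 CPM in rich and from 1152 to 4076 CPM in poor libraries.

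Genes of oxygen shortage and glycolysis were lower in fat-rich tumours. Of the 12 genes of that list, 6 fell and 0 rose at the adjusted threshold, against 1.06% of all genes called lower, all 12 had a negative log2 change, and their median was -0.87 beside -0.01 for all genes. The 12 genes summed to 2889 to 4789 CPM in rich and 3854 to 8806 CPM in poor libraries. Vegfa (chromosome 17, 46327919 to 46343303, minus strand, GRCm39), the main growth factor for vessels, ran from 22.4 to 68 CPM in rich libraries with a median of 41.3, and from 59.6 to 331 CPM in poor libraries with a median of 124. Only the ends of these ranges overlapped, with 7 of 8 rich libraries below the poor minimum. It changed by -1.95 ± 0.35 (log2, SE, edgeR adjusted p = 0.00787), by -1.52 within the libraries labelled KO and by -2.37 within those labelled WT.

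The glycolytic kinase gene Pgk1 had medians of 92.1 and 196 CPM, and 5 of 8 rich libraries lay below the poor minimum of 100 (log2 change -1.34 ± 0.25, edgeR adjusted p = 0.01). Ndrg1, a stress-response gene, had medians of 140 and 303 CPM (-1.39 ± 0.29, edgeR adjusted p = 0.0172), and Slc2a1, the main glucose importer, 68.1 and 120 CPM (-1.14 ± 0.25, edgeR adjusted p = 0.0199). The remaining calls of the list fell outside the naming rule and are named after their values were seen: Egln3, an oxygen-sensing hydroxylase that HIF itself induces, had medians of 166 and 294 CPM (-0.89 ± 0.20), and Car9, a carbonic anhydrase of the tumour cell surface, 27.1 and 49.4 CPM (-1.36 ± 0.34). Vegfa, Pgk1, Ndrg1 and Slc2a1 passed in 16 of 16 fits that left out a library, Egln3 in 15 (adjusted p = 0.051 without KO 11) and Car9 in 7 (highest at 0.0804, without WT 20).

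Several of the strongest falls lay outside the list, and a relation to it was not tested. Ak4 (chromosome 4, 101273675 to 101324968, plus strand, GRCm39), a mitochondrial adenylate kinase, ran from 5.2 to 12 CPM in rich and from 14.9 to 82.3 CPM in poor libraries, with medians of 8.75 and 37.2, and changed by -2.46 ± 0.33 (edgeR adjusted p = 0.000823). Pgam1, phosphoglycerate mutase of glycolysis, ran from 31.6 to 43.9 CPM against 46.8 to 86.9 (-0.94 ± 0.12, edgeR adjusted p = 0.000647). Ddit4, an inhibitor of mTORC1 signalling, ran from 62.3 to 117 CPM against 126 to 393 (-1.27 ± 0.20, edgeR adjusted p = 0.00374). For all of these no rich library reached any poor library, and the same held for Maff, a small Maf transcription factor, at 4.36 to 8.53 CPM against 10.9 to 40.1. Mgarp, a mitochondrial protein gene, had medians of 0.124 and 1.57 CPM (-3.41 ± 0.58, edgeR adjusted p = 0.00565), and passed the expression filter only through the poor libraries, so that it had to differ. Pgk1, Pgam1 and Fabp5 have processed pseudogene copies that could take part of their reads, so their levels are uncertain.

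Among the 10 largest falls, Slc16a3, the lactate exporter of glycolytic cells, had medians of 3.78 and 12.8 CPM (-2.63 ± 0.56). Adm2, a peptide of the adrenomedullin family, had medians of 0.247 and 1.32 CPM (-3.93 ± 0.86) with 25.2 CPM in KO 12, and Ankrd37, an ankyrin repeat gene, 1.9 and 4.42 CPM (-2.14 ± 0.49). These 3 passed in 15, 15 and 14 of 16 fits that left out a library, with highest adjusted p-values of 0.0533 without KO 12, 0.0535 without KO 11 and 0.0614 without WT 23. Adrenomedullin itself, Adm, which stood on the fat cell list, had medians of 4.4 and 16.6 CPM. Nkd2, a Wnt antagonist, ran from 11.8 to 16.4 CPM against 18.5 to 131 without overlap (-1.96 ± 0.38), as did Fstl4, a follistatin-like gene, at 0 to 0.237 CPM against 0.527 to 18.2 (-5.16 ± 0.97). Hmga2, Nppc, Mab21l4 and Pglyrp1 made up the rest with log2 changes of -4.25, -3.99, -3.60 and -1.77. Adm2, Fstl4, Hmga2, Nppc and Mab21l4 passed the expression filter only through the poor libraries, so that they had to differ. Of these, Hmga2 passed in 13 of 16 fits that left out a library, Nppc in 6, Mab21l4 in 3 and Pglyrp1 in 4.

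**Figure D3:**
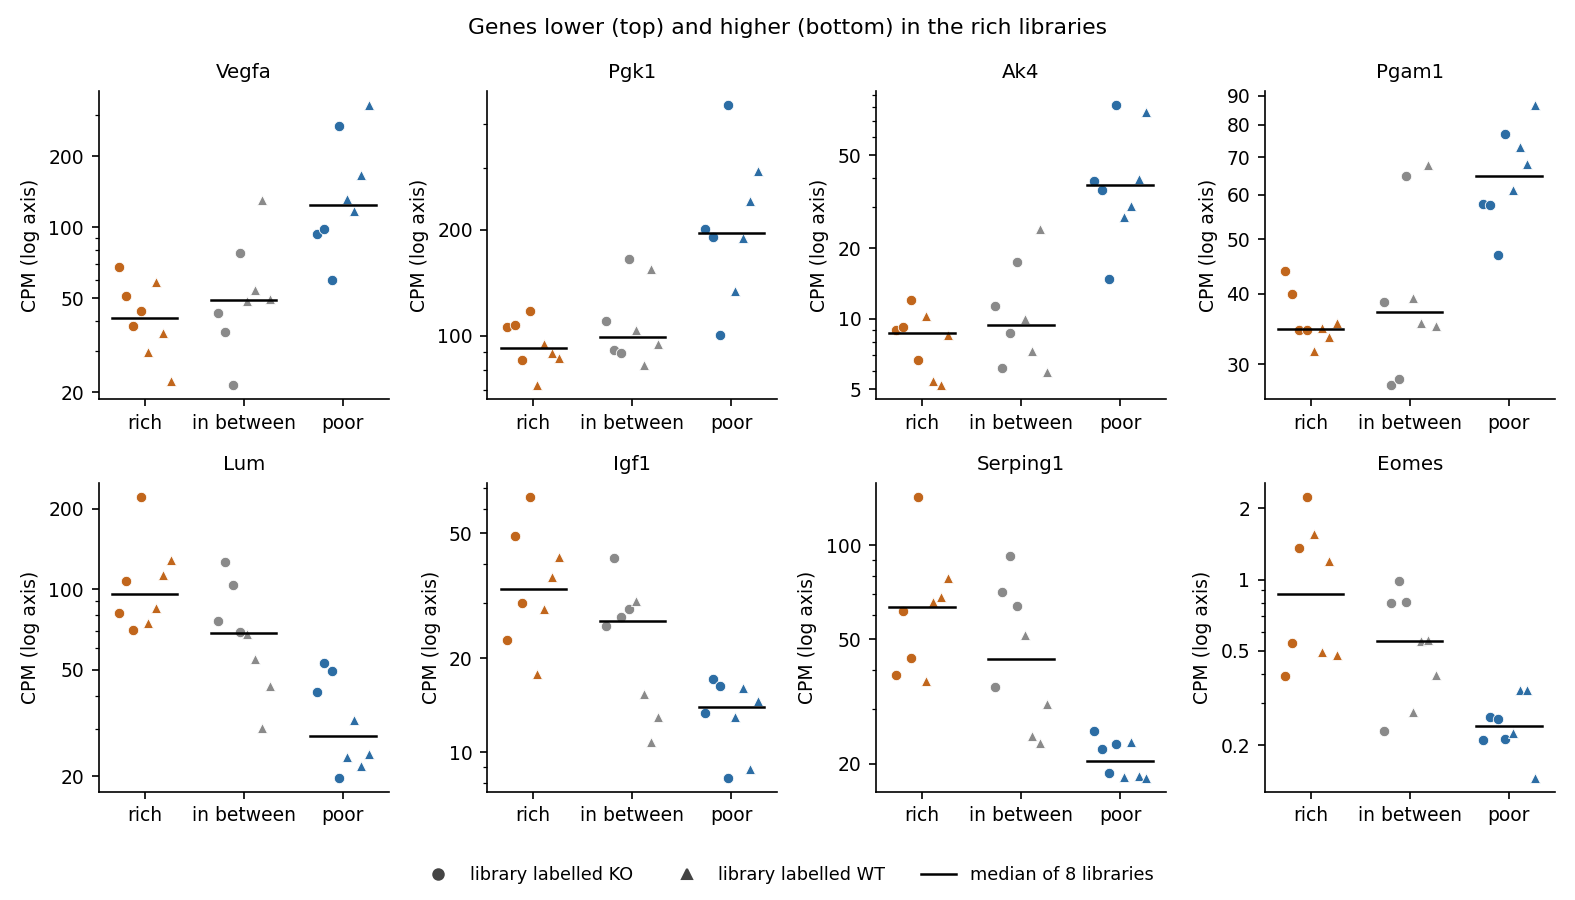
CPM (log axis) of 4 genes lower (Vegfa, Pgk1, Ak4, Pgam1, top) and 4 higher (Lum, Igf1, Serping1, Eomes, bottom) in rich libraries, with each of the 24 libraries a point in its class and a line at the median of 8. Ak4 and Pgam1 separate at 12 against 14.9 CPM and at 43.9 against 46.8 CPM, and Lum, Igf1 and Serping1 separate without overlap, as does Eomes, which passed the expression filter only through the rich libraries.

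Without KO 10 and KO 11, 2 genes of the oxygen list passed, Vegfa and Pgk1, at log2 changes of -1.93 and -1.34, and the list's median was -0.92. With the B cell score as a covariate 0 passed, with a median of -0.85, while Ak4 and Pgam1 still passed at -2.30 and -0.83.

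The promoters of 4 of the fallen genes are shown because the core of the HIF response element, ACGTG or GCGTG, lies in them. The sequences are the 250 bases before the RefSeq start of each gene on GRCm38.p6, written 5′ to 3′ on the gene's strand, with every core on either strand in capitals, where a core of the other strand reads CACGT or CACGC and cores may overlap each other. Pgk1 is chrX:106186850-106187099 (plus), Slc2a1 is chr4:119108495-119108744 (plus), Egln3 is chr12:54203875-54204124 (minus) and Pgam1 is chr19:41911621-41911870 (plus).
Pgk1: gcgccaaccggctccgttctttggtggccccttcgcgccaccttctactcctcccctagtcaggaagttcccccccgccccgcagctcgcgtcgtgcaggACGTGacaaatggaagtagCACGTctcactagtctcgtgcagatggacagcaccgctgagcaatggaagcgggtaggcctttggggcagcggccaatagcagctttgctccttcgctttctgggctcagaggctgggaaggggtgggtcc
Slc2a1: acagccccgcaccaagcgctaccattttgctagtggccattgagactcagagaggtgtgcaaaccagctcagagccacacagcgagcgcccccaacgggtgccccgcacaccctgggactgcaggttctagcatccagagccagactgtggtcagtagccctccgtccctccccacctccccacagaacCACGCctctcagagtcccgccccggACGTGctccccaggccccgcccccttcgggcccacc
Egln3: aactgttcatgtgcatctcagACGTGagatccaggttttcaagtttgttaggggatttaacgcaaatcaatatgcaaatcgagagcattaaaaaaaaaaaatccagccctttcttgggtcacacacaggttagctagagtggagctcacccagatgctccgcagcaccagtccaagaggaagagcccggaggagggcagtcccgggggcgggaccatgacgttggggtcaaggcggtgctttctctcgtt
Pgam1: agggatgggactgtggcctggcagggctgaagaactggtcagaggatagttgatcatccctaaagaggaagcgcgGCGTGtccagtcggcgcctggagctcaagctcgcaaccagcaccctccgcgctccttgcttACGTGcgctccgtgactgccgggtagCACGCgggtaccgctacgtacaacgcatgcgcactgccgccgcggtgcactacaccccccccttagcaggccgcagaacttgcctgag
They hold 2, 2, 1 and 3 cores. A core of 5 bases is common: 12679 of 32851 windows of that length in the RefSeq table hold one (38.6%), as do 51.7% of the windows of tested genes, 64.8% of those of called-lower genes and 29.6% of those of called-higher genes. For the 12 genes of the oxygen list, 11 had a window and 15 of their 18 windows hold a core. The sets also differ in base composition, with median GC contents of 58.8% for tested, 61.2% for called-lower and 51.2% for called-higher genes and 63.4% for the list. A match shows letters and not a bound site, and the data hold no measure of binding.

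Cell cycle genes pointed the same way, with fewer calls in edgeR. The share of all genes called lower was 1.06%. All 15 had a negative log2 change with a median of -0.68, 14 were under an unadjusted p of 0.05, and 1 passed, the mitotic kinase gene Aurka, with medians of 22.7 and 38.1 CPM (-0.79 ± 0.22, edgeR adjusted p = 0.0498). Ranges overlapped, and Aurka passed in 3 of 16 fits that left out a library, with a highest adjusted p of 0.105 without KO 11. The 15 genes summed to 614 to 1693 CPM in rich and 863 to 2102 CPM in poor libraries. Under the WT label the sums were 614 to 1340 CPM in rich and 1444 to 2102 CPM in poor libraries. Under the KO label they overlapped, at 911 to 1693 and 863 to 1534 CPM. Leaving out single libraries called between 0 and 10 of the 15 genes, all lower, and 0 passed without KO 10 and KO 11. In DESeq2 10 of the 15 were called lower, beside 7 of the 12 oxygen genes and 745 of all 16818 genes. In limma voom with quality weights 0 of the 15 were called, beside 5 of the 12 oxygen genes.

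Fibroblast and matrix genes were higher in fat-rich tumours. Of 12 genes 7 rose and 0 fell, against 3.09% of all genes called higher, all 12 had a positive log2 change, and their median was 0.98. Lum (chromosome 10, 97401363 to 97408565, plus strand, GRCm39), the collagen-binding proteoglycan lumican, ran from 70.4 to 221 CPM in rich libraries with a median of 96.2, and from 19.7 to 52.8 CPM in poor libraries with a median of 28.4. The classes did not overlap, and the change was 1.71 ± 0.24 (edgeR adjusted p = 0.0012), 1.47 within the libraries labelled KO and 1.96 within those labelled WT. Thy1, a surface marker of fibroblasts that T cells also carry in mice, ran from 30.5 to 88.9 CPM against 13.5 to 27.1 (1.03 ± 0.20, edgeR adjusted p = 0.012). Dcn, the proteoglycan decorin, had medians of 228 and 82.4 CPM (1.53 ± 0.31, edgeR adjusted p = 0.0149), and Mfap5, a microfibril protein, 42.1 and 15.2 CPM (1.30 ± 0.25, edgeR adjusted p = 0.0107), each with 7 of 8 rich libraries above every poor one.

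Progenitors of fat cells are fibroblast-like cells of the same stroma. Of 10 of their genes 4 rose, beside 3.09% of all genes called higher, 0 fell, and the median log2 change was 0.77. Pi16, a marker of the earliest progenitors, ran from 15.7 to 73.9 CPM in rich and from 8.41 to 14.1 CPM in poor libraries, without overlap (1.44 ± 0.27, edgeR adjusted p = 0.01). Fbn1, the microfibril protein fibrillin, had medians of 164 and 73.6 CPM (1.01 ± 0.25), the growth factor receptor gene Pdgfra 37.2 and 20.9 CPM (0.90 ± 0.23) and Cd34 22 and 10.8 CPM (1.02 ± 0.27). Pi16 passed in 16 of 16 fits that left out a library, Pdgfra in 8, Fbn1 in 7 and Cd34 in 4, these 3 with their highest adjusted p-values without KO 11, at 0.0832, 0.0773 and 0.0867. Without KO 10 and KO 11, 4 fibroblast genes and 1 progenitor gene passed, with medians of 0.92 and 0.78, and with the B cell covariate 0 and 0, with medians of 0.87 and 0.64.

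Complement genes made by fat and stroma rose as well, 4 of 8 beside 3.09% of all genes called higher. Of them 0 were lower, and the median was 1.30. Serping1 (chromosome 2, 84595704 to 84605778, minus strand, GRCm39), the C1 inhibitor, ran from 36.7 to 143 CPM in rich and from 18.1 to 25.5 CPM in poor libraries, with medians of 63.7 and 20.4 (1.61 ± 0.23, edgeR adjusted p = 0.00168). C1ra, a protease of the C1 complex that this inhibitor blocks, ran from 14.2 to 41.5 CPM against 6.28 to 13.2 (1.17 ± 0.21, edgeR adjusted p = 0.0082). Both were without overlap. C1s1, the partner protease, had medians of 50 and 19.8 CPM (1.44 ± 0.28, edgeR adjusted p = 0.0111), and F13a1, the clotting factor XIII subunit that tissue macrophages also make, 83.7 and 25.7 CPM (1.47 ± 0.32, edgeR adjusted p = 0.0216, and 0.0505 without KO 11). Without KO 10 and KO 11, 3 of the 8 passed and the median was 1.05, and with the B cell covariate 0 passed, with a median of 0.83.

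Of 8 genes of the insulin-like growth factor system 2 rose, beside 3.09% of all genes called higher. None fell, and the median log2 change was -0.06. Igf1 (chromosome 10, 87694127 to 87772909, plus strand, GRCm39), the growth factor itself, ran from 17.8 to 65.5 CPM in rich and from 8.3 to 17.2 CPM in poor libraries, with medians of 33.2 and 14 (1.37 ± 0.23, edgeR adjusted p = 0.00489). Igfbp6, a binding protein, ran from 10.2 to 45.7 CPM against 2.88 to 9.54 (1.45 ± 0.26, edgeR adjusted p = 0.0082). Neither overlapped between the classes, and both passed without KO 10 and KO 11, while with the B cell covariate neither passed (edgeR adjusted p = 0.176 and 0.274). The receptor gene Igf1r had medians of 10.2 and 11.1 CPM and did not pass (-0.22 ± 0.19, edgeR adjusted p = 0.516).

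Enzymes that convert steroids and retinoids rose in 3 of 6 tested genes of 7 listed, beside 3.09% of all genes called higher. Of them 0 were lower, and the median was 1.57. Sult1a1, a sulfotransferase, ran from 6.9 to 27.7 CPM in rich and from 1.37 to 3.78 CPM in poor libraries, without overlap (2.05 ± 0.28, edgeR adjusted p = 0.00108), and was the 1 gene of the list to pass with the B cell covariate. Hsd11b1, which makes active glucocorticoid in fat, had medians of 8.69 and 2.24 CPM (1.89 ± 0.39, edgeR adjusted p = 0.0166). Aldh1a1, a retinaldehyde dehydrogenase, had medians of 10.1 and 3.05 CPM (2.43 ± 0.62, edgeR adjusted p = 0.0404) and passed in 7 of 16 fits that left out a library, with an adjusted p of 0.122 without KO 11. With the B cell covariate the adjusted p was 0.554 for Hsd11b1 and 0.548 for Aldh1a1.

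Among genes on no list, those with the smallest p-values were higher in rich tumours. Because Adipoq chose the classes, a fat cell gene absent from the lists would differ by that choice. Whether these genes and the largest rises below are such genes was not tested. Cyp2e1 (chromosome 7, 140343732 to 140354903, plus strand, GRCm39), a cytochrome P450, ran from 6.36 to 106 CPM in rich and from 0.257 to 3.02 CPM in poor libraries, with medians of 29.5 and 1.22 (4.58 ± 0.46, edgeR adjusted p = 0.000186). The galactosyltransferase gene B3galt2 ran from 3.6 to 13.9 CPM against 0.343 to 1.36, the synuclein gene Sncg from 5.51 to 22.3 CPM against 0.686 to 2.33, and Wfdc21, of the WAP-domain family, from 1.69 to 13 CPM against 0.182 to 1.45. They rose by 2.91 ± 0.30, 2.86 ± 0.30 and 3.11 ± 0.33 with an edgeR adjusted p of 0.000186 each. The classes did not overlap for any of these 4 genes, and all 4 passed with the B cell covariate, with the muscle covariate and without KO 10 and KO 11.

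The 10 largest rises off the lists also included Paqr9, of the adiponectin receptor-like family, at 0.705 to 22.1 CPM in rich and 0 to 0.219 CPM in poor libraries (4.98 ± 0.74). The others without overlap were Slc36a2, an amino acid transporter (4.60 ± 0.56), Mrap, an accessory protein of the ACTH receptor (4.06 ± 0.53), the carboxylesterase gene Ces1f (4.73 ± 0.74), A530016L24Rik (4.80 ± 0.67), Tmem179 (4.51 ± 0.68) and the MHC gene H2-Q10 (3.98 ± 0.76). Like Mylk4 and Gys2, these 7 genes passed the expression filter only through the rich libraries, so that they had to differ. Mylk4, of the muscle myosin kinase family, and Gys2, a glycogen synthase, overlapped: KO 11 held 191 and 14.3 CPM, against rich medians of 2.5 and 0.373. Mylk4 passed in 4 of 16 fits that left out a library and had an adjusted p of 0.315 without KO 11. Ces1f and H2-Q10 belong to families of near-identical copies, so their reads are uncertain.

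Immune genes of the tissue rose in several lists. Of 12 macrophage genes 4 rose, beside 3.09% of all genes called higher, 0 fell and the median log2 change was 0.55. Mrc1, the mannose receptor of tissue macrophages, had medians of 63 and 27.9 CPM with ranges of 33.4 to 159 and 15 to 46.8 (1.17 ± 0.26, edgeR adjusted p = 0.0216). Lyve1, which marks macrophages along vessels and lymphatic vessels themselves, had medians of 12.4 and 3.9 CPM (1.85 ± 0.41, edgeR adjusted p = 0.0219). In both genes 7 of 8 rich libraries lay above every poor one. Cd163, a haemoglobin scavenger receptor, had medians of 18.1 and 8.3 CPM (1.21 ± 0.29, edgeR adjusted p = 0.0326, and 0.0662 without WT 20). Timd4, a receptor for dying cells that passed the expression filter only through the rich libraries, did not overlap at 0.541 to 37.3 CPM against 0.0374 to 0.439, but its size rested on KO 11: without KO 10 and KO 11 the change was 2.66 in place of 4.36. Without those 2 libraries 2 of the 12 genes passed, and with the B cell covariate 0 passed, with a median of 0.25. Of 8 genes of lipid-associated macrophages 0 passed in edgeR with all libraries, without KO 10 and KO 11 or with the covariate, and in DESeq2 1 was called higher and 1 lower.

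Mast cell genes rose in 4 of 7 tested of 9 listed, beside 3.09% of all genes called higher. Of them 0 were lower, and the median was 1.89. Only 6 of the 7 would have passed the expression filter in the poor libraries alone, and the remaining gene had to differ. Tpsb2, a tryptase, ran from 2.17 to 24.1 CPM in rich and from 0.62 to 1.72 CPM in poor libraries, without overlap (2.31 ± 0.43, edgeR adjusted p = 0.00946). Mcpt4, a chymase of connective tissue mast cells, had medians of 4.51 and 1.03 CPM (2.24 ± 0.45, edgeR adjusted p = 0.014), Cpa3, their carboxypeptidase, 3.45 and 1.02 CPM (2.02 ± 0.46) and Cma1, another chymase, 3.82 and 1.6 CPM (1.89 ± 0.49). Cma1 passed in 4 of 16 fits that left out a library, with an adjusted p of 0.112 without WT 16, where Cpa3 had 0.0723. All are proteases stored in mast cell granules, and related copies can share their reads. Without KO 10 and KO 11, 3 passed and the median was 1.47. With the B cell covariate 0 of the 7 passed, with a median of 1.26, and with the muscle covariate 2, with a median of 1.09.

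Genes of NK and cytotoxic cells rose in 7 of 8, with 0 lower and a median of 1.93, and T cell genes in 6 of 12, with 0 lower and a median of 2.14, beside 3.09% of all genes called higher. Eomes, a transcription factor of these cells, ran from 0.392 to 2.24 CPM in rich and from 0.146 to 0.343 CPM in poor libraries, without overlap (1.96 ± 0.39, edgeR adjusted p = 0.0142), and passed the expression filter only through the rich libraries. Klrd1, an NK receptor subunit, had medians of 2.51 and 0.934 CPM (1.58 ± 0.36), Gzma, a granzyme, 2.52 and 1.08 CPM (1.30 ± 0.30), and Prf1, the pore-forming perforin, 0.813 and 0.174 CPM (2.69 ± 0.63). Of the T cell genes, the adhesion receptor gene Cd2 had medians of 1.51 and 0.525 CPM (2.34 ± 0.49) and the antigen receptor subunits Cd3g 3.12 and 1.12 CPM (2.15 ± 0.46) and Cd3e 1.55 and 0.652 CPM (2.12 ± 0.52). Only 5 of the 8 and 10 of the 12 genes would have passed the expression filter in the poor libraries alone. The others, Eomes and Prf1 among them, thus had to differ. Klrd1, Gzma, Prf1 and Cd3e passed in 15, 11, 12 and 8 of 16 fits that left out a library, with adjusted p-values of 0.0662, 0.0692, 0.0728 and 0.0711 without KO 11. The T cell sums of KO 10 and KO 11 stood apart as given above. Without them 0 of the 8 and 0 of the 12 passed, with medians of 1.46 and 1.04, and the changes of Cd2 and Cd3e were 1.29 and 1.13. Without KO 11 alone, 1 and 2 passed, and with the B cell covariate 0 and 0, with medians of 1.18 and 0.35.

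**Figure D4:**
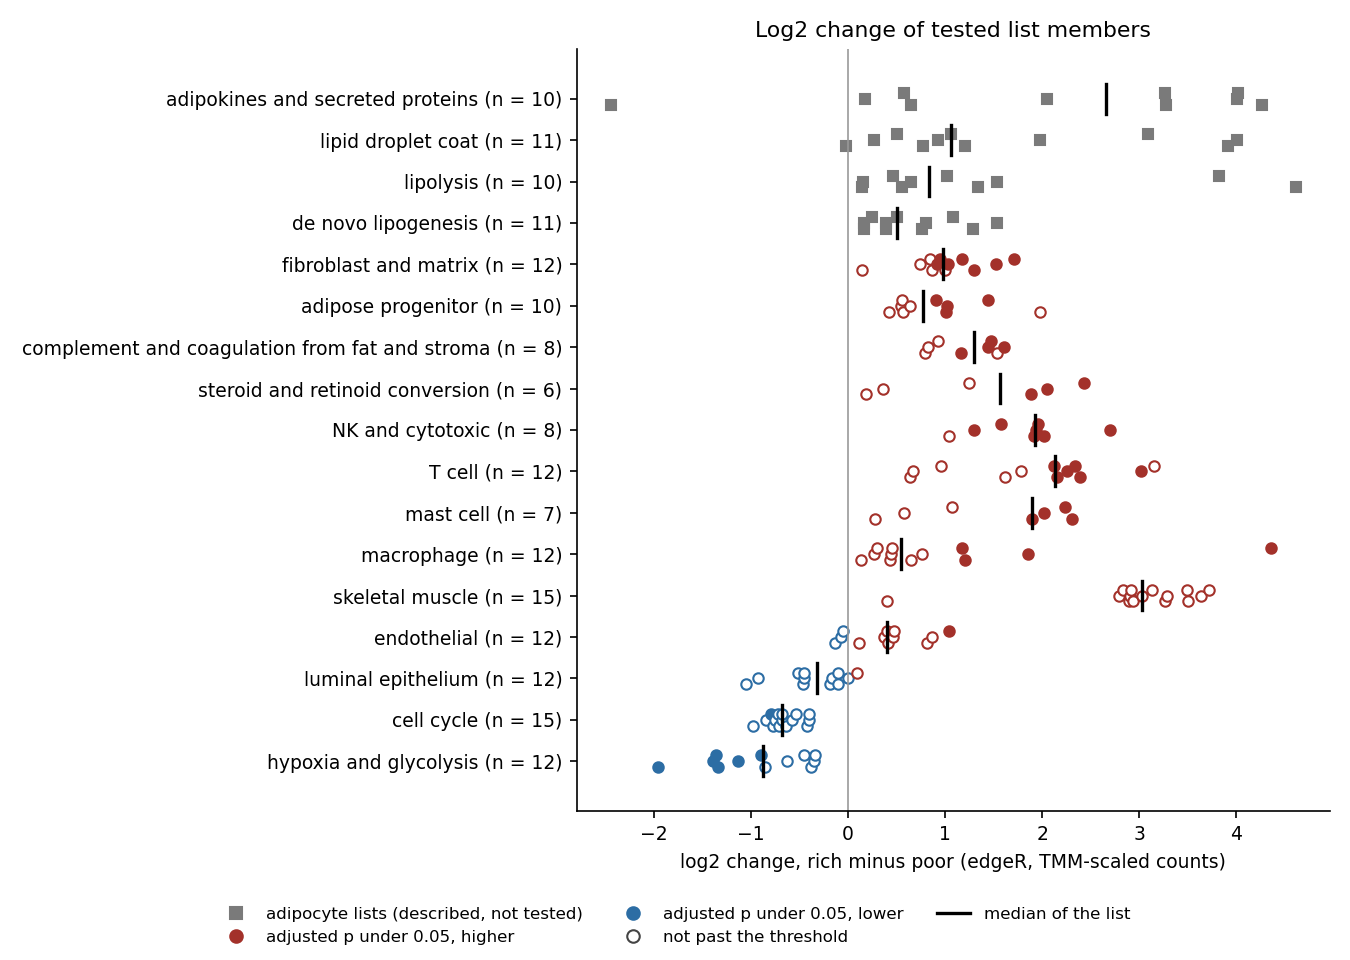
Log2 change of rich minus poor libraries for every tested gene of selected lists, on the horizontal axis, with a point for each gene, filled where it passed, a bar at the list's median, and grey squares for fat cell lists, which are described and not tested. The oxygen and glycolysis and cell cycle genes lie below 0, with medians of -0.87 and -0.68, and the fibroblast, complement, mast cell and NK genes lie above it, with medians of 0.98, 1.30, 1.89 and 1.93. Only 6 of the 7 mast cell and 5 of the 8 NK genes would have passed the expression filter in the poor libraries alone. The others had to differ.

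Other tissue lists were less clear. The share of all genes called higher was 3.09%. Of 12 endothelial genes 1 rose, the angiopoietin receptor gene Tek (medians of 9.33 and 4.29 CPM, 1.04 ± 0.25, edgeR adjusted p = 0.0319, and 0.0631 without KO 11), and the median was 0.40. Of 4 tested lymph node genes of 8 listed 1 rose, Ccl21a, a chemokine of lymph nodes with near-identical copies, which had medians of 4.82 and 1.52 CPM (3.24 ± 0.80, edgeR adjusted p = 0.0346) and 1.99 without KO 10 and KO 11, where it did not pass. Of 6 tested B cell genes and 15 tested muscle genes 0 passed, although their medians were 2.46 and 3.03. Without KO 10 and KO 11 the medians were 0.83, with 2 of the 6 B cell genes negative, and 2.49. In limma voom with quality weights they were 1.59 and 1.01. Only 4 of the 6 B cell genes would have passed the expression filter in the poor libraries alone. Pax5, the B cell identity factor, had medians of 1.6 and 0.547 CPM (2.76 ± 0.77, edgeR adjusted p = 0.0531). In edgeR 4 and 14 were at an unadjusted p under 0.05, and in DESeq2 4 B cell and 9 muscle genes passed. Of 12 luminal epithelial genes 0 passed in edgeR and 1 in DESeq2, with 5 at an unadjusted p under 0.05 and a median of -0.32, and the keratin gene Krt8 had medians of 1070 and 1276 CPM (-0.45 ± 0.19, edgeR adjusted p = 0.175). Among 12 oxidative phosphorylation, 7 milk and 8 inflammatory cytokine genes 0 passed in edgeR or DESeq2, with 0, 2 and 0 at an unadjusted p under 0.05 in edgeR.

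Whether the rich minus poor difference itself differed between the genotype labels was tested as an interaction. Of 16818 genes 0 passed (0%), with a lowest adjusted p of 0.934 in edgeR, 884 at an unadjusted p under 0.05 and 5 calls in DESeq2. With 4 libraries per label and class this does not show that the differences were equal. For Ak4 the changes were -2.35 ± 0.49 within the libraries labelled KO and -2.56 ± 0.40 within those labelled WT, and for Serping1 1.57 ± 0.40 and 1.66 ± 0.22. Some lists leaned to 1 sign, a positive interaction being a higher rich minus poor change under the KO label. It was positive for 15 of 15 cell cycle (median 0.48), 12 of 12 T cell (1.16) and 12 of 12 endothelial genes (0.63). For NK genes it was negative in 7 of 8 (-0.91). Oxygen and glycolysis genes had 7 of 12 positive, and all genes 8770 of 16818. Whether lists differed between labels was not tested.

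The 8 libraries in between, which entered neither class, gave a separate look at the same genes over an Adipoq range of 8.85 to 32.7 CPM. A slope against log2(Adipoq CPM + 1) with the genotype label as a block called 0 of 17099 genes (0%), with a lowest adjusted p of 0.258 in edgeR, 1144 at an unadjusted p under 0.05 and 62 calls in DESeq2. By sign alone, of the genes called higher in rich tumours 461 of 504 with a slope had a positive one (91.5%), beside 50.4% of all tested genes, and of those called lower 167 of 177 had a negative one (94.4%), beside 49.6%. Off the fat cell lists the share was 439 of 479 (91.6%). Genes are not independent replicates, so these shares are a description with no p.

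By list, the slope was negative for 12 of 12 oxygen and glycolysis genes and 15 of 15 cell cycle genes. In edgeR 4 and 11 of these were at an unadjusted p under 0.05, beside 1144 of all 17099 genes. The slope was positive for 12 of 12 fibroblast and matrix genes, 8 of 8 NK genes and 9 of 10 progenitor genes. Other lists with a positive median in the classes did not follow. The slope was positive for 5 of 11 fat synthesis, 3 of 7 brown fat and 1 of 4 lymph node genes. The same held for 2 of 5 red cell, 2 of 8 lipid-associated macrophage and 3 of 9 fatty acid oxidation genes. Vegfa had a slope of -1.28 and Ak4 one of -0.98 per unit of log2 Adipoq, and Lum, Serping1 and Igf1 had slopes of 0.91, 0.82 and 0.96. Lpl, Cd36 and Lipe, which did not overlap between the classes, had slopes of 0.09, 0.22 and -0.01, while those of Plin1, Cfd and Fabp4 were 1.02, 1.04 and 1.06. The 5 B cell genes with a slope in both fits had negative slopes, the reverse of their class difference, and the B cell sum in these libraries was highest in WT 24 at 49.8 CPM.

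**Figure D5:**
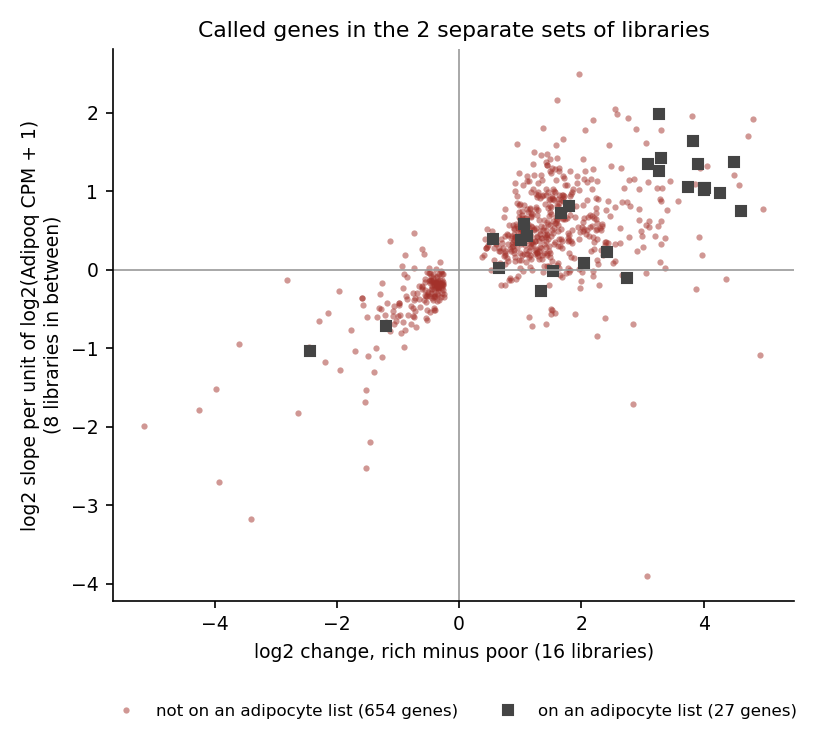
Slope in the 8 in-between libraries (log2 expression per unit of log2(Adipoq CPM + 1), vertical) against the log2 change of rich minus poor libraries (horizontal) for the called genes, each point being a gene and the squares genes on the fat cell lists. Most genes called higher lie above 0 on the vertical axis (461 of 504) and most called lower lie below it (167 of 177), and 0 slopes passed the test.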

How the data were processed

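Whole-number read counts per gene were deposited by the authors for 24 libraries, made with featureCounts 2.0.0 on a RefSeq annotation of GRCm39 per the file headers. STAR and Subread appear in the submitters' processing notes; their versions are not given in the sources here. The counting command in the headers records no strand option and no counting of reads placed at more than 1 position, so reads from genes that overlap or lie antisense are not separable. Of 46318 gene IDs, 44749 matched a symbol in a RefSeq gene table. No pair of libraries within a genotype label agreed within sampling noise (lowest chi-square per degree of freedom 25.7 over 132 pairs).

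CPM values are counts over the library total. Tests used edgeR 4.0.16 under R 4.3.3, with filterByExpr, TMM scaling and the two-sided quasi-likelihood test over all genes, a Benjamini-Hochberg adjusted p under 0.05, and the genotype label as a block, on the 16 libraries of the classes or the 8 in between, and were tested on simulated data first. Alternatives used voom with quality weights (limma 3.58.1), DESeq2 1.42.0, other scalings and filters, muscle and B cell scores as covariates, and subsets of libraries. The authors' own comparison of the genotype labels was not used here. Mitochondrially encoded messenger genes were not analysed here.

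The members and lists were chosen with earlier results of these data known. Named genes followed a rule: any member of the fat cell and receptor lists, up to 4 members of each other list with the smallest p, the 10 largest called rises and 10 largest called falls off the lists with a mean of at least 1 CPM, and the 5 smallest p in each direction.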

Additional observations from a re-analysis of the deposited data

Results flagged for a closer look

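In 234 groups of 8 libraries examined, 44 held a library whose gap to its nearest neighbour was a large part of the group's range (Dixon's criterion). Among independent groups chance marks about 1 in 20. These groups shared the same libraries, and most were genes chosen for the text, so the 44 cannot be judged against that rate. Of the 44, KO 11 accounted for 29, all among the rich libraries, and KO 12 for 6, all among the poor.

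Of the fat cell genes in the rich libraries, KO 11 stood highest and apart for Plin1 at 99.1 CPM, Lep at 35.4, Lpl at 743, Acsl1 at 352, Aqp7 at 6.75, Pnpla2 at 356, Fasn at 2862, Ebf1 at 21, Ebf2 at 7.74, Pparg at 29.1 and Slc2a4 at 97.7. The same held for the brown fat genes Ucp1 at 265 CPM, Cidea at 101 and Cox8b at 65.4. Of the other genes it stood apart for Pi16 at 73.9 CPM, C1s1 at 136, Igfbp6 at 45.7, Sult1a1 at 27.7, Hsd11b1 at 33.9, Timd4 at 37.3, Tpsb2 at 24.1 and Mcpt4 at 31.6. Off the lists these were Sncg at 22.3 CPM, Paqr9 at 22.1, A530016L24Rik at 25.7, Tmem179 at 9.26, Mylk4 at 191 and Gys2 at 14.3. Its share of reads on genes of the mitochondrial chromosome was 0.194%. In the rich class Fabp5 was also far lowest in WT 13 at 30.3 CPM, and Nppc highest in KO 2 at 0.523 CPM.

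Among the poor libraries, KO 12 stood lowest and apart for the progenitor genes Pdgfra at 5.69 CPM, Cd34 at 4.15 and Fbn1 at 22.6, and highest for Adm2 at 25.2, Nppc at 22.2 and Pglyrp1 at 254. KO 9 was lowest for Aurka at 16.8 CPM and for the summed cell cycle genes at 863 CPM. KO 5 was highest for Ucp1 at 2.94 CPM and Gys2 at 0.252, KO 6 for Aqp7 at 0.307 and WT 18 for Slc2a4 at 27.5. The total of WT 18 was 38022182 counted reads.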

How the results depend on the processing

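The count of 697 genes moved by more than 1.5 times under these settings: 1796 in DESeq2, 229 with the muscle score and 48 with the B cell score as covariate, 3652 as a slope over all 24 libraries, 0 in the libraries labelled KO alone and 2 in those labelled WT alone, 311 without KO 11 and KO 12, 220 without KO 10 and KO 11 (chosen after seeing the data), 109 at an adjusted p under 0.01 and 1675 under 0.1. Fewer libraries were tested in the subsets, and the other causes were not tested. Leaving out single libraries gave 291 to 1027. DESeq2 gave 5 genes for the difference between genotype labels and 62 for the in-between slope in place of 0, where leaving out single libraries gave 0, and 0 to 3 (3 without KO 7 and 3 without WT 15). The log2 change of Plin2 took the other sign with upper-quartile scaling (0.019), voom (0.11), the B cell score (0.12), the libraries labelled WT (0.50), without KO 11 and KO 12 (0.19) and without KO 10 and KO 11 (0.047), and ran from -0.15 to 0.19 leaving out single libraries. That of Cidea was -0.054 with the B cell score. Without single libraries, the rich minus poor difference ran from -827792 to 1619196 in total reads, 628 to 985 in genes detected, 0.0036 to 0.0265 percentage points in mitochondrial share and -1.10 to -0.19 in the share of the 50 most abundant genes. Of the 94 named genes past the threshold, none reversed in 2870 recomputed values. Off the fat cell lists, 454 of those values no longer passed. Genes of the fat cell lists were scored by the size of their change and not by passing, so their lost calls are not in the 454. Of their values 15 moved by at least the SD of the rich libraries. With the B cell score, Acsl1 and Lep no longer passed (edgeR adjusted p = 0.407 and 0.198). Genes near the filter's 0.424 CPM rest on few reads. No paired analysis was possible because the numbers of the KO libraries (1 to 12) and of the WT libraries (13 to 24) have none in common.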

Other observations

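Of the tissue lists not described above, 9 tested genes of pericytes and smooth muscle all had a positive log2 change in fat-rich tumours, with a median of 0.60 and 0 past the threshold in edgeR, 2 in DESeq2, and 3 at an unadjusted p under 0.05. Their slopes in the in-between libraries were positive for 9 of 9, with a median of 0.93. Of 5 tested red cell genes all 5 were higher with a median of 1.16, and 0 passed in edgeR, 4 being under an unadjusted p of 0.05. In limma voom with quality weights 4 of the 5 passed, with a median of 1.73, and in DESeq2 2 passed. The red cell genes summed to 100.2 to 1361 CPM in rich and 58.95 to 468 CPM in poor libraries. Of 7 tested Schwann cell genes 0 passed in edgeR or DESeq2, with a median of 0.11 and 0 under an unadjusted p of 0.05, and of 9 tested fatty acid oxidation genes 0 passed in edgeR and 1 in DESeq2, with a median of 0.16 and 2 under an unadjusted p of 0.05. Of 4 tested neutrophil genes 0 passed in edgeR and 1 in DESeq2, with a median of -0.996 and 2 under an unadjusted p of 0.05.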
